A study of Mus musculus with 14 samples.

Results

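Solute carriers are membrane proteins that move amino acids, sugars, ions, nucleotides, vitamins and metabolites across the plasma membrane and the membranes of organelles, each family under its own Slc number. The genes described here were chosen by measured detection in mouse oocytes. A gene with a symbol starting with Slc and a number was taken when at least 1 of its probes had a detection p-value under 0.05 on all 14 arrays, and its brightest such probe stood for it. The zinc families Slc30 and Slc39, with 21 genes, were left out. This gave 108 of the 305 solute carrier genes on the array, among 16593 genes with a symbol of their own. All 108 passed the filter of each comparison. Because detection and signal chose the genes, both are given as descriptions without a test, whereas the difference between Cre-positive and Cre-negative oocytes was not used in the choice.

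The oocytes were at the germinal vesicle stage, that is, fully grown and arrested in prophase of meiosis I. Every sample carried a human AGO2 with myc and GFP tags, knocked in at Rosa26 after a stop flanked by lox sites. AGO2 is the Argonaute that cuts transcripts paired to a small RNA, and the Zp3 promoter drives Cre in growing oocytes. Without mimic there were 4 Cre-positive and 4 Cre-negative samples, and with a miR-15a mimic injected at 2 µM there were 3 Cre-positive and 3 Cre-negative samples. Mice had received 5 units of PMSG, a gonadotropin that makes follicles grow, 48 h before injection, and the oocytes were cultured overnight in 2 µM milrinone, which holds them in meiotic arrest. The labels give no age, no strain background, no number of oocytes and no injected agent for the set without mimic. No group had Cre without the AGO2 transgene, so effects of Cre and of AGO2 cannot be told apart. The labels do not say that replicates came from separate animals, so p-values measure the spread between these samples only, which may be technical.

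The oocyte lives on what it imports and on what passes through gap junctions from the granulosa cells around it, and it depends on mitochondrial oxidation of pyruvate rather than on glucose. Glycine uptake by Slc6a9 (GLYT1) serves cell volume control in mouse oocytes and early embryos. Mitochondrial carriers of the Slc25 family pass ADP and ATP, phosphate, acylcarnitines and amino acids across the inner mitochondrial membrane, and the Slc35 family supplies the Golgi with the nucleotide sugars used for glycoproteins such as those of the zona pellucida.

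The mimic is shown because it defines the second set. The labels name miR-15a without an arm, and RefSeq (GRCm38.p6) gives the 5p arm, 22 bases long, at chr14:61632075-61632096 on the minus strand, with the seed, bases 2 to 8, in capitals.
mmu-miR-15a-5p: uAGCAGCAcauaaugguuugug

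The 2 sets were deposited as separate tables with different brightness, so the signal of a gene without mimic was not compared with its signal with mimic. Mean raw intensity per array was 118 to 151 without mimic and 339 to 380 with mimic. The arrays detected 11652 to 13715 of 25697 probes, and Cre-positive replicate 1 without mimic detected the fewest, with 125 solute carrier genes against 144 to 158 on the other 13 arrays. Cre-positive replicate 4 without mimic stood apart on the first principal component, at 24.1 against -6.65 to 2.59 on the other arrays of its set. The Ago2 probe checked the Cre labels, with a mean log2 signal of 6.86 ± 0.0948 in Cre-positive and 4.89 ± 0.183 in Cre-negative oocytes without mimic (SD, n = 4 each), and 8.43 ± 0.0983 in Cre-positive and 6.08 ± 0.168 in Cre-negative oocytes with mimic (SD, n = 3 each). All 14 oocyte markers on the array were detected on all 14 arrays, against 1 of 24 granulosa and cumulus markers, 1 of 11 theca and stroma markers and 1 of 7 blood and immune markers. These were Nr5a2, Acta2 and Laptm5, in that order. Their mean log2 signals in Cre-negative oocytes were 6.60, 5.12 and 6.74 without mimic and 8.26, 6.65 and 8.67 with mimic. Detection on no array held for 7 of the granulosa and cumulus markers, 7 of the theca and stroma markers and 5 of the blood and immune markers. Of the granulosa and cumulus markers, Gja1, Kitl and Krt8 were each detected on 13 arrays and Fshr on 12. Slc38a3, the cumulus cell amino acid carrier in the granulosa list, was detected on 1 array.

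The share of genes detected on all arrays ran from 0% to 75% between the classes. The mitochondrial carriers had 20 of 39 genes detected on all arrays (51.3%), and the carriers of nucleotide sugars and acetyl-CoA had 14 of 25 (56%). Of the carriers of inorganic ions and of acid and base, 21 of 52 were detected (40.4%), and of the carriers of amino acids and peptides 21 of 63 (33.3%). The carriers of iron, copper and haem had 5 of 7 (71.4%). At the other end were nucleosides and organic cations with 5 of 29 (17.2%), organic acids with 6 of 32 (18.8%) and sugars and polyols with 6 of 27 (22.2%). Vitamins, choline and lipids had 7 of 23 (30.4%), urea and others 0 of 4, and 3 of 4 genes that are only named after a carrier were detected. Over all solute carriers the share was 35.4%, against 43% (7142 of 16593) of all genes with a symbol. The number of probes bears on this share: it was 30.9% for solute carriers with 1 probe, against 38% of all genes with 1 probe, and 47.6% for solute carriers with more probes, against 55.5% of all such genes. These shares describe detection by the deposited p-values and were not tested.

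**Figure D1:**
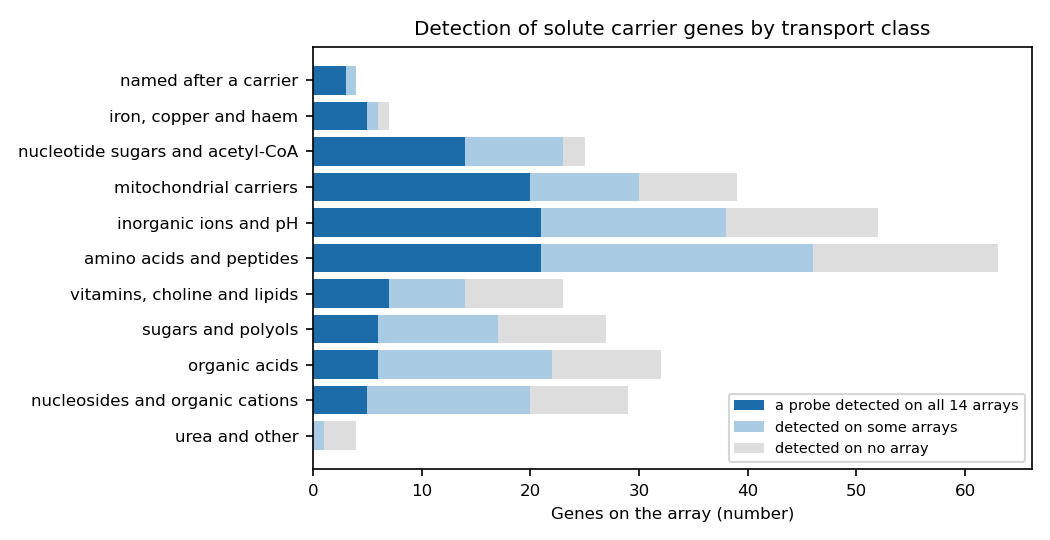
Number of solute carrier genes on the array in each transport class, split into genes with a probe detected on all 14 arrays, genes detected on some arrays and genes detected on none. Mitochondrial carriers (20 of 39) and carriers of nucleotide sugars and acetyl-CoA (14 of 25) had most of their genes detected throughout, and nucleosides and organic cations 5 of 29.

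Some families had every gene detected on all arrays, and others had none. Both genes were detected on all arrays in Slc11 (divalent metals), Slc20 (phosphate), Slc31 (copper) and Slc41 (magnesium), all 4 in Slc44 (choline and related), 6 of 8 in Slc12 (cation and chloride cotransport) and 14 of 24 in Slc35. No gene reached detection on all arrays in Slc9 (sodium and proton exchangers, 7 genes), Slc13 (5), Slc17 (9), Slc19 (folate and thiamine, 3), Slc27 (fatty acids, 6) and Slc29 (nucleosides, 4). Of the 197 solute carrier genes outside the rule, 84 were detected on no array and 113 on 1 to 13 arrays.

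Several carriers with textbook roles were outside the rule. The glucose carriers Slc2a3 (GLUT3) and Slc2a8 (GLUT8) were detected on 2 and 4 arrays, whereas Slc2a1 (GLUT1) was detected on all. Among the monocarboxylate carriers, which take up pyruvate and lactate, Slc16a1 (MCT1) was detected on 0 arrays, Slc16a7 (MCT2) on 1 and Slc16a3 (MCT4) on 6. Among amino acid carriers, the neutral amino acid exchanger Slc1a5 was detected on 0 arrays, and Slc38a2 (SNAT2) and Slc7a6 on 1 each. The mitochondrial citrate carrier Slc25a1 was detected on 12 arrays, the UDP-galactose carrier Slc35a2 on 9 and the nucleoside carrier Slc29a1 on 3. A detection p over the threshold shows that these probes were not told from background, not that the transcript was absent. Slc25a4 had no probe with a symbol of its own in the platform annotation and was not analysed here.

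At the edge of the rule, the largest detection p on any array was 0.0476 for Slc25a13 (citrin, the mitochondrial aspartate and glutamate carrier), 0.0464 for Slc37a3 and 0.0439 for Slc26a10, all inside. Just outside were the anion exchanger Slc4a3 at 0.0677, Slc35a5 at 0.0752 and Slc47a2 at 0.0764, detected on 13, 13 and 12 arrays.

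The log2 signals of the 108 genes, averaged over the arrays of each set, ran from 4.62 to 9.87 without mimic (median 6.18) and from 5.69 to 11.57 with mimic (median 8.06). The medians of all 7769 features detected on all arrays were 6.59 and 8.46. Across the 108 genes the signals of the 2 sets had a Pearson correlation of 0.958 and a Spearman correlation of 0.947. These points share their probes, so the correlation says that a bright probe was bright in both sets. The median standard deviation within a group was 0.163 without and 0.133 with mimic, on the log2 scale. It was smallest for Slc2a1 without mimic (0.0447) and for Slc45a3 with mimic (0.0380), and largest for Slc23a2 without mimic (0.334) and Slc1a1 with mimic (0.580).

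The class medians of log2 signal without mimic were 6.58 for mitochondrial carriers, 6.42 for amino acids and peptides, 6.40 for nucleosides and organic cations, 6.15 for nucleotide sugars and acetyl-CoA, 6.06 for organic acids and 6.05 for inorganic ions. They were 5.74 for vitamins, choline and lipids, 5.44 for iron, copper and haem and 5.42 for sugars and polyols. With mimic they were 8.61 for mitochondrial carriers and for amino acids and peptides, 8.37 for inorganic ions, 8.21 for nucleotide sugars and acetyl-CoA and 8.08 for vitamins, choline and lipids. They were 7.81 for nucleosides and organic cations, 7.65 for organic acids, 7.09 for sugars and polyols and 7.05 for iron, copper and haem. Probe signals do not rank transcripts: the probes of the chloride cotransporter gene Slc12a2 that were detected on all arrays differed among themselves by 4.67 on the log2 scale without mimic. No order between genes or classes is drawn from these signals.

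**Figure D2:**
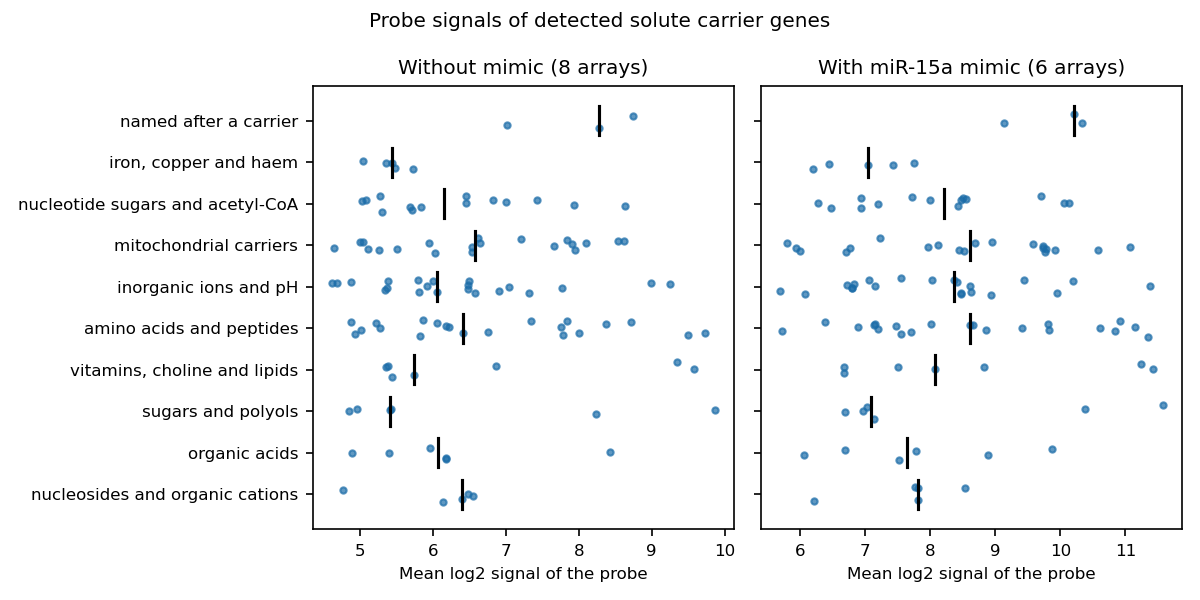
Log2 signal of each of the 108 detected solute carrier genes, by transport class, without mimic and with mimic; each point is 1 gene averaged over the arrays of its set. The classes overlap over most of their range, which runs from 4.62 to 9.87 without mimic and from 5.69 to 11.57 with mimic.

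Without mimic, no detected solute carrier differed between Cre-positive and Cre-negative oocytes by limma with Benjamini-Hochberg adjustment over 9546 features, and the smallest adjusted p among the 108 was 0.795. Of all features, 4 passed (0.0419%). At an unadjusted p under 0.05 there were 3 of the 108 genes (2.78%), against 4.61% of all features. Most intervals were narrow at the background offset used. Of the 108 genes, 105 had a 95% interval within a 1.5-fold change either way, against 97.2% of all features. All 108 lay within a 2-fold change, against 99.8%. The offset makes differences of dim probes smaller, so these counts and those of the other comparisons hold for that setting only. Without mimic, the difference of the dim Slc47a1 probe ran from -0.99 with an offset of 1 to -0.14 without background correction. Intervals at other settings were not counted. In pooled oocyte RNA, fewer transcripts per cell and fewer cells with the transcript cannot be told apart.

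The balance of signs without mimic lay below 0. Of the 108 genes, 35 were above 0 (32.4%), against 47.8% of all features and 49% of features detected on all arrays, and the median difference was -0.03, against -0.01 over all features. This count was 38 to 45 when each array in turn was left out. It was 20 under median scaling in place of quantile normalization, where 28.8% of all features lay above 0. The class medians ran from -0.07 in mitochondrial carriers to -0.01 in vitamins, choline and lipids, and none was above 0. The share above 0 is a description of the list and was given no test.

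No gene of the 108 had all its Cre-positive arrays above all Cre-negative arrays without mimic (1.07% of all features did). For 3 genes all Cre-positive arrays lay below all Cre-negative arrays (1.8% of all features did): Slc25a20, Slc47a1 and Slc12a8.

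With mimic, again no detected solute carrier passed in limma over 9883 features, and the smallest adjusted p among the 108 was 0.565. Of all features 14 passed (0.142%). At an unadjusted p under 0.05 there were 6 of the 108 genes (5.56%), against 7.52% of all features. Of the 108 genes 56 were above 0 (51.9%), against 50.7% of all features and 51.6% of features detected on all arrays, and the median difference was 0.00. The 95% interval was within a 1.5-fold change for 91 genes (84.3%), against 81.4% of all features and 87.3% of features detected on all arrays. It was within a 2-fold change for 107 (98.6% of all features). The exception was the glutamate carrier Slc1a1, at -1.25 to 0.41 on the log2 scale.

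The groups with mimic did not overlap for 12 of the 108 genes. All Cre-positive arrays lay above all Cre-negative arrays for 5 genes (6.44% of all features did), namely Slc25a31, Slc25a28, Slc25a3, Slc7a6os and Slc35b3. All lay below for 7 genes (6.19% of all features did), namely Slc15a2, Slc36a1, Slc41a2, Slc25a20, Slc10a6, Slc45a3 and Slc25a26, the last of which was outside the rule for named genes and is named because its groups were seen not to overlap. The 5 and 7 genes are 4.63% and 6.48% of the 108, near the shares of all features.

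The Cre effect with mimic minus the Cre effect without mimic was tested in a fit of all 4 groups over 9109 features. It passed for 0 features (0%) and for 0 of the 108 genes, whose smallest adjusted p was 0.841. At an unadjusted p under 0.05 limma gave 5 of the 108 genes (4.63%), against 4.54% of all features and 3.64% of features detected on all arrays. Of the 108 differences 64 were above 0 (59.3%), against 51.4% of all features and 51.9% of features detected on all arrays. The 95% interval was within a 1.5-fold change for 77 genes (71.3%), against 67.6% of all features and 72.3% of features detected on all arrays. It was within a 2-fold change for 107 (97.9% of all features). Across the 108 genes the 2 Cre effects had a Pearson correlation of 0.240 and a Spearman correlation of 0.272 and the same sign in 67. The sets share no array, but they share the probes, and genes are not independent replicates. The correlations and the count of same signs are given without their values over all features. They are therefore not read as particular to the solute carriers. Of the 49 genes named by rule, 45 had a Cre effect without mimic and 43 one with mimic that moved by over 1.5 times or changed sign when some array was left out. The sign changed for 18 genes without and 19 with mimic.

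**Figure D3:**
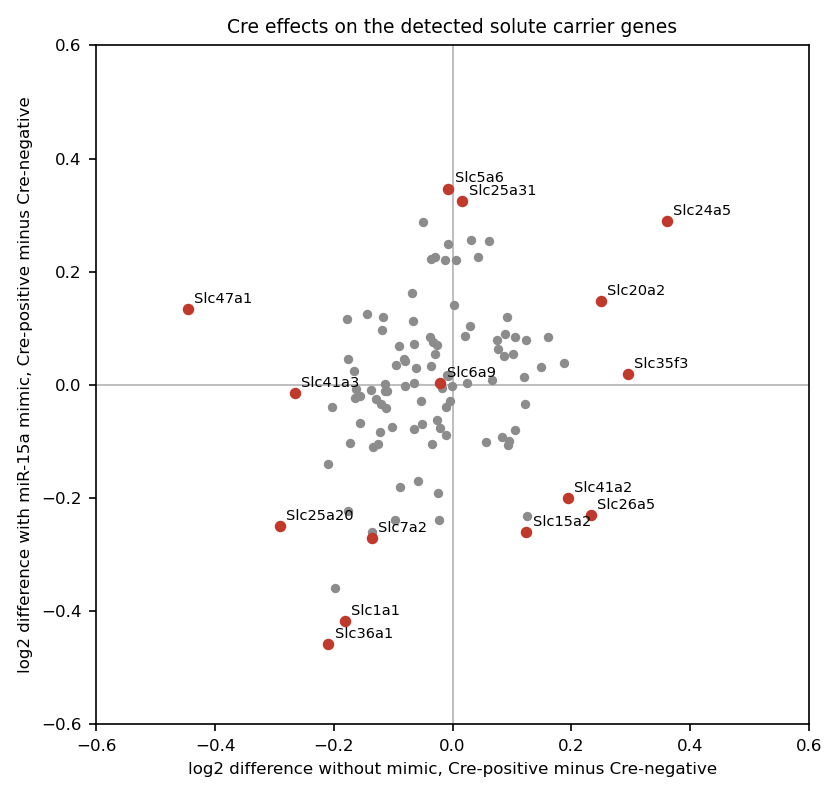
Cre effect with mimic (vertical axis) against Cre effect without mimic (horizontal axis), each the log2 signal of Cre-positive minus Cre-negative oocytes, for the 108 detected solute carrier genes; each point is 1 gene. All points lie between -0.46 and 0.36 on both axes, and none passed an adjusted p of 0.05 in either set.

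Among the mitochondrial carriers, Slc25a20 moves acylcarnitines into mitochondria for the oxidation of fatty acids. Its log2 signal without mimic was 5.70, 5.90, 6.05 and 5.91 in Cre-positive oocytes, against 6.12, 6.34, 6.19 and 6.07 in Cre-negative oocytes. In the set with mimic it was 8.86, 8.73 and 8.89 in Cre-positive oocytes, against 9.06, 9.07 and 9.11 in Cre-negative oocytes. All Cre-positive arrays lay below all Cre-negative arrays in both sets. Groups that did not overlap in the same direction in both sets, higher or lower, were seen for 1 of the 108 genes. They were seen for 46 of the 9109 features tested in both, and that count joins both directions. The difference without mimic was -0.29 ± 0.108 on the log2 scale (SE, 95% interval -0.52 to -0.06, limma adjusted p = 0.949). With mimic it was -0.25 ± 0.0866 (SE, limma adjusted p = 0.565). A second probe of Slc25a20 that was detected on all arrays gave -0.09 without and 0.09 with mimic. Without background correction the difference of the first probe without mimic was -0.15.

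Slc25a31 is the ADP and ATP carrier of germ cells, and Slc25a28 (mitoferrin 2) brings iron into mitochondria. With mimic, the log2 signal of Slc25a31 was 8.96, 8.81 and 8.76 in Cre-positive oocytes, against 8.67, 8.30 and 8.59 in Cre-negative oocytes. The groups did not overlap. The difference with mimic was 0.32 ± 0.122 on the log2 scale (SE, 95% interval 0.04 to 0.61, limma adjusted p = 0.605). Without mimic the difference was 0.02, and a second probe detected on all arrays gave 0.09 without and -0.00 with mimic. Without Cre-negative replicate 2 the difference with mimic was 0.21. Slc25a28 had 8.27, 8.15 and 8.27 in Cre-positive oocytes, against 7.998, 7.93 and 8.09 in Cre-negative oocytes. Its groups did not overlap either, with a difference of 0.23 ± 0.0905 (SE, limma adjusted p = 0.637).

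None of the other mitochondrial carriers passed the adjusted threshold in either set. The phosphate carrier Slc25a3, which supplies ATP synthesis, was at 0.00 without and 0.14 with mimic, as log2 differences, and its groups did not overlap with mimic. Without Cre-positive replicate 1 the value with mimic was 0.07, and a second Slc25a3 probe detected on all arrays gave 0.25 without and -0.14 with mimic. The widely expressed ADP and ATP carrier Slc25a5 was at -0.03 without and 0.07 with mimic. The oxoglutarate and malate carrier Slc25a11 was at -0.13 without and -0.03 with mimic, and Slc25a13 at -0.04 without and 0.09 with mimic. Slc25a17, whose product sits in the peroxisome, had mean log2 signals of 8.54 without and 11.07 with mimic and differences of -0.12 without and -0.03 with mimic. Slc25a38, the glycine carrier needed for haem synthesis, had mean log2 signals of 8.63 without and 10.57 with mimic and differences of 0.07 without and 0.01 with mimic. Other Slc25a38 probes detected on all arrays gave -0.16 and 0.02 without and -0.07 and 0.06 with mimic. Slc25a48 was at -0.21 without and -0.14 with mimic. The S-adenosylmethionine carrier Slc25a26 was at -0.09 without and -0.18 with mimic. Of the 20 mitochondrial carriers, 6 were above 0 without and 9 with mimic.

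Among the carriers of amino acids and peptides, Slc6a9 showed little spread. Its log2 signal without mimic was 9.65, 9.69, 9.77 and 9.78 in Cre-positive oocytes, against 9.73, 9.74, 9.66 and 9.84 in Cre-negative oocytes. In the set with mimic it was 11.37, 11.38 and 11.28 in Cre-positive oocytes, against 11.33, 11.40 and 11.28 in Cre-negative oocytes. The groups overlapped in both sets. The difference was -0.02 without mimic (95% interval -0.23 to 0.18) and 0.00 with mimic (95% interval -0.20 to 0.20). The taurine carrier Slc6a6 had mean log2 signals of 9.49 without and 11.14 with mimic and differences of -0.13 without and -0.11 with mimic.

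Slc15a2 (PEPT2) takes up small peptides with protons, and Slc36a1 moves small amino acids with protons out of lysosomes. With mimic, the log2 signal of Slc15a2 was 8.53, 8.56 and 8.50 in Cre-positive oocytes, against 8.73, 8.99 and 8.65 in Cre-negative oocytes. The groups did not overlap. The difference with mimic was -0.26 ± 0.108 on the log2 scale (SE, 95% interval -0.51 to -0.01, limma adjusted p = 0.645). It was -0.16 without Cre-negative replicate 2. Without mimic the difference was 0.12, and the groups overlapped. With mimic, Slc36a1 had 7.003, 6.55 and 7.19 in Cre-positive oocytes, against 7.41, 7.38 and 7.33 in Cre-negative oocytes. Its groups did not overlap, and 1 Cre-positive array, replicate 2, lay well below the other 2. The difference with mimic was -0.46 ± 0.161 on the log2 scale (SE, 95% interval -0.83 to -0.08, limma adjusted p = 0.573). Without that array it was -0.27, and without background correction -0.25. Without mimic Slc36a1 had 5.08, 4.61, 4.79 and 4.63 in Cre-positive oocytes, against 4.90, 4.93, 5.196 and 4.93 in Cre-negative oocytes, with a difference of -0.21 and groups that overlapped.

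Slc3a2 is the heavy chain that brings several amino acid exchangers to the membrane, and Slc7a5 (LAT1) is a partner that exchanges large neutral amino acids. Slc3a2 had log2 differences of -0.08 without and 0.05 with mimic and Slc7a5 of -0.03 without and 0.08 with mimic. The cationic amino acid carrier Slc7a2 was at -0.14 without and -0.27 with mimic, with limma adjusted p = 0.695 with mimic. Another probe of Slc7a2 detected on all arrays had the opposite sign in each set. Of the 21 genes of this class, 5 were above 0 without and 11 with mimic.

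Among the carriers of inorganic ions, Slc24a5 exchanges sodium for calcium and potassium and is best known from melanosomes. Without mimic its log2 signal was 6.89, 6.50, 6.65 and 6.99 in Cre-positive oocytes, against 6.20, 6.66, 6.34 and 6.40 in Cre-negative oocytes. In the set with mimic it was 8.12, 7.99 and 8.43 in Cre-positive oocytes, against 7.75, 8.02 and 7.90 in Cre-negative oocytes. The groups overlapped in both sets. The difference without mimic was 0.36 ± 0.128 on the log2 scale (SE, 95% interval 0.09 to 0.63, limma adjusted p = 0.949). With mimic it was 0.29 ± 0.135 (SE, limma adjusted p = 0.708). The difference without mimic was 0.22 when no background was corrected, and that with mimic was 0.17 without Cre-positive replicate 3. Slc24a5 had the largest positive difference among the 108 genes without mimic, and its sign was positive in both sets.

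Slc12a2 (NKCC1) brings sodium, potassium and chloride into the cell. Its mean log2 signals were 9.24 without and 11.37 with mimic and its differences 0.09 without and -0.11 with mimic. Other Slc12a2 probes detected on all arrays gave 0.01 and 0.09 without and -0.21 and -0.32 with mimic. Slc12a8, a less studied member of the same family, had without mimic 5.74, 5.52, 5.73 and 5.82 in Cre-positive oocytes, against 5.84, 5.94, 5.86 and 5.88 in Cre-negative oocytes. The groups did not overlap, but the gap between them was small, and the difference was -0.18 ± 0.101 (SE, limma adjusted p = 0.949). Without background correction it was -0.08, and without Cre-positive replicate 2 it was -0.12. With mimic it was 0.12, of the other sign. The sodium-driven bicarbonate carrier Slc4a8 had mean log2 signals of 8.99 without and 10.19 with mimic and differences of -0.02 without and -0.01 with mimic. A second Slc4a8 probe detected on all arrays gave 0.08 without and -0.15 with mimic. The chloride and bicarbonate exchanger Slc4a2 (AE2) was at 0.06 without and -0.10 with mimic.

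The phosphate carriers Slc20a1 and Slc20a2 stood at -0.08 without and -0.00 with mimic and at 0.25 without and 0.15 with mimic. For Slc20a2 the value without mimic was 0.12 without Cre-negative replicate 3, and that with mimic was 0.01 without Cre-positive replicate 3. For Slc20a1 the value without mimic was 0.05, of the other sign, without Cre-positive replicate 4. The magnesium carriers of the Slc41 family did not share a sign: Slc41a2 was at 0.19 without and -0.20 with mimic, with groups that did not overlap with mimic, and Slc41a3 at -0.27 without and -0.01 with mimic. Without background correction Slc41a3 was at -0.13 without mimic. For Slc41a2 the difference of the 2 Cre effects was -0.39 (95% interval -0.74 to -0.04, limma adjusted p = 0.9999).

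Slc26a5 (prestin) is the motor protein of cochlear outer hair cells. Its log2 signal without mimic was 6.50, 6.26, 6.85 and 6.83 in Cre-positive oocytes, against 6.51, 6.33, 6.51 and 6.16 in Cre-negative oocytes. In the set with mimic it was 8.66, 8.39 and 8.51 in Cre-positive oocytes, against 8.89, 8.86 and 8.50 in Cre-negative oocytes. The differences were 0.23 without and -0.23 with mimic, and the groups overlapped in both sets. The effect with mimic minus the effect without was -0.46 (95% interval -0.91 to -0.02, limma adjusted p = 0.9999). A second probe detected on all arrays gave values within 0.02 without and 0.04 with mimic of the first. Of the 21 genes of the ion class, 10 were above 0 without and 8 with mimic.

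Of the metal carriers, Slc11a1 (NRAMP1) stands on phagosomes and Slc11a2 (DMT1) takes up iron. Slc11a1 was at -0.05 without and 0.29 with mimic, with limma adjusted p = 0.726 with mimic. The value of Slc11a1 with mimic was 0.12 without background correction and 0.17 without Cre-negative replicate 3. Other probes of Slc11a1 were detected on 0 or 2 arrays. Slc11a2 was at -0.18 without and 0.04 with mimic, and its value without mimic was -0.03 without Cre-negative replicate 4. The copper carrier Slc31a2 had mean log2 signals of 5.44 without and 7.76 with mimic and differences of -0.03 without and 0.05 with mimic.

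Slc47a1 (MATE1) expels organic cations in exchange for protons. Its log2 signal without mimic was 4.63, 4.54, 4.58 and 4.41 in Cre-positive oocytes, against 4.65, 5.15, 4.91 and 5.23 in Cre-negative oocytes. All Cre-positive arrays lay below all Cre-negative arrays. The difference without mimic was -0.45 ± 0.125 on the log2 scale (SE, 95% interval -0.71 to -0.18, limma adjusted p = 0.795). The probe had a mean log2 signal of 4.76, and the value moved with the background step, standing at -0.14 without background correction, -0.20 with an offset of 50 and -0.99 with an offset of 1. Its other 3 probes were detected on 0 or 1 arrays. With mimic it had 6.20, 6.30 and 6.36 in Cre-positive oocytes, against 6.02, 6.08 and 6.36 in Cre-negative oocytes, which overlapped, with a difference of 0.13. The difference of the 2 Cre effects, 0.58 (95% interval 0.19 to 0.97, limma adjusted p = 0.841), was the largest in size among the 108 genes and was 0.19 without background correction.

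In the same class, the vesicular monoamine carrier Slc18a2 (VMAT2) had mean log2 signals of 6.55 without and 8.54 with mimic and differences of -0.06 without and -0.17 with mimic. The carnitine carrier Slc22a5 had differences of -0.20 without and -0.36 with mimic, with a 95% interval of -0.88 to 0.17 with mimic. With an array left out the value with mimic lay between -0.62 (without Cre-negative replicate 3) and -0.20 (without Cre-negative replicate 2), and that without mimic between -0.40 and -0.09 (without Cre-positive replicates 3 and 4). A second Slc22a5 probe detected on all arrays had the opposite sign, at 0.02 without and 0.08 with mimic.

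Of the carriers of nucleotide sugars and acetyl-CoA, Slc35b3 passes the sulfate donor PAPS into the Golgi. With mimic its log2 signal was 9.68, 9.73 and 9.78 in Cre-positive oocytes, against 9.68, 9.68 and 9.63 in Cre-negative oocytes. The groups were apart by less than these decimals show. The difference was 0.07 ± 0.0818 (SE, limma adjusted p = 0.893), and it was -0.09 without mimic. Other Slc35b3 probes detected on all arrays gave -0.10 and 0.04 with mimic. Slc35a4 had mean log2 signals of 8.63 without and 10.13 with mimic and differences of -0.17 without and 0.02 with mimic. Slc35f3 had differences of 0.30 without and 0.02 with mimic, with a 95% interval of -0.05 to 0.64 without mimic. The value without mimic was 0.098 without Cre-positive replicate 4, 0.11 without background correction and 0.51 with an offset of 1. Of the 14 genes, 5 were above 0 without and 10 with mimic.

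Among the organic acid carriers, Slc10a6 takes up sulfated steroids. With mimic its log2 signal was 8.70, 8.80 and 8.83 in Cre-positive oocytes, against 9.14, 9.03 and 8.86 in Cre-negative oocytes. The groups did not overlap. The difference with mimic was -0.23 ± 0.102 on the log2 scale (SE, 95% interval -0.47 to 0.01, limma adjusted p = 0.672). Without mimic the difference was 0.13, and a second probe detected on all arrays had the opposite sign in each set. Slc16a10, which carries aromatic amino acids, had mean log2 signals of 8.43 without and 9.87 with mimic and differences of -0.03 without and -0.06 with mimic. Slc10a3 was at -0.14 without and 0.12 with mimic.

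Glucose enters many cells through Slc2a1 (GLUT1). Its log2 signal without mimic was 8.23, 8.24, 8.25 and 8.21 in Cre-positive oocytes, against 8.16, 8.29, 8.28 and 8.25 in Cre-negative oocytes. In the set with mimic it was 10.54, 10.14 and 10.46 in Cre-positive oocytes, against 10.44, 10.33 and 10.32 in Cre-negative oocytes. The groups overlapped in both sets, and the differences were -0.01 without mimic (95% interval -0.21 to 0.19) and 0.02 with mimic (95% interval -0.27 to 0.30). Slc45a3 (prostein), of the sugar class by family, had differences of -0.10 without and -0.07 with mimic, and its groups with mimic did not overlap. Slc37a3 was at -0.01 without and 0.02 with mimic.

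Among vitamins, choline and lipids, the choline-like carrier Slc44a2 had mean log2 signals of 9.58 without and 11.43 with mimic and differences of -0.00 without and -0.00 with mimic, which lie within ± 0.01 of 0. Other Slc44a2 probes detected on all arrays gave 0.01 and 0.05 without and -0.09 and -0.02 with mimic. The vitamin C carrier Slc23a2 had mean log2 signals of 9.35 without and 11.24 with mimic and differences of -0.14 without and -0.01 with mimic, with a 95% interval of -0.50 to 0.22 without mimic. Slc5a6, which takes up biotin and pantothenate, had a difference of 0.35 with mimic, and its 95% interval of -0.16 to 0.85 spanned 0. It was 0.17 without background correction, and with an array left out it lay between 0.20 (without Cre-positive replicate 1) and 0.58 (without Cre-positive replicate 2).

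Of the genes only named after a carrier, Slc7a6os, on the opposite strand of Slc7a6, had with mimic 9.25, 9.20 and 9.32 in Cre-positive oocytes, against 8.86, 9.002 and 9.15 in Cre-negative oocytes. The groups did not overlap, and the difference was 0.25 ± 0.103 (SE, limma adjusted p = 0.643). The scaffold protein gene Slc9a3r1 (NHERF1) had differences of -0.05 without and -0.07 with mimic and Slc4a1ap (kanadaptin) of -0.11 without and -0.01 with mimic.

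**Figure D4:**
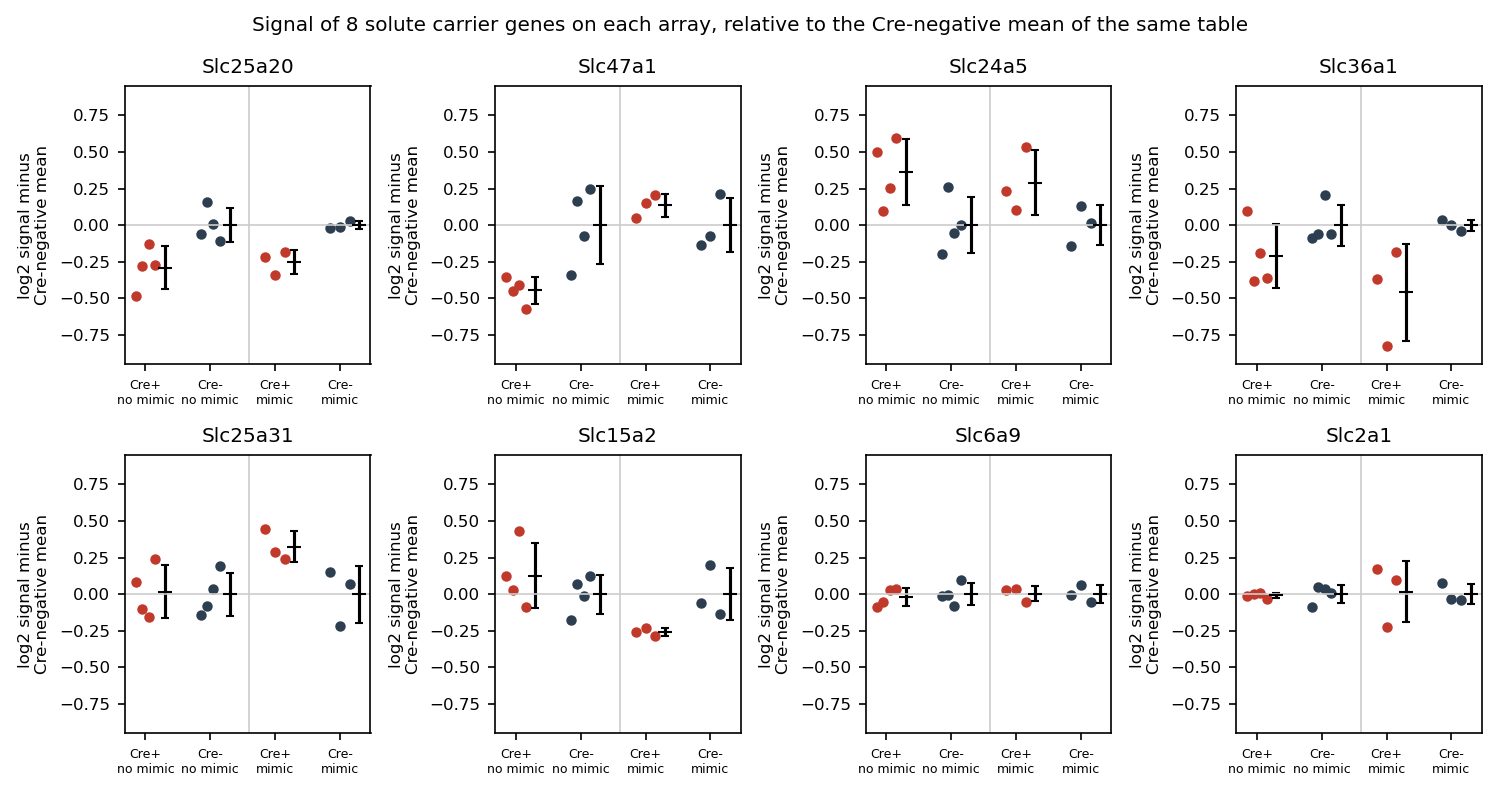
Log2 signal of 8 named genes on each array, as the difference from the Cre-negative mean of the same set; each point is 1 array, bars are the mean ± SD of the group (n = 4 each without mimic, n = 3 each with mimic), with Cre-positive left of Cre-negative. Slc25a20 lies below 0 on every Cre-positive array of both sets, Slc47a1 does so without mimic only, and Slc6a9 spreads closely around 0.

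For 27 of the 108 genes more than 1 probe was detected on all arrays. All probes of a gene had the same sign for 14 of the 27 genes without mimic and for 15 with mimic. The median spread between the probes' differences was 0.09 without and 0.13 with mimic, on the log2 scale, and the median standard error of the 108 differences was 0.115 and 0.112.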

How the data were processed

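Total RNA of mouse germinal vesicle oocytes was profiled on 14 one-colour Illumina BeadChips, after PicoPure isolation, Nugen amplification and biotin labelling, per the labels' protocols. The authors deposited, for each of 2 sets, a raw table of signal intensity with a detection p-value per probe and array, per the file headers, and a normalized table. The deposited normalized tables and the series value table hold log2 signal; they matched a quantile normalization of log2 raw signal within each set. For scanner and software, the sources used here give nothing. The number of arrays and the brightness over background limit the precision.

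From raw intensity, background was removed by the nec function (limma 3.58.1, R 4.3.3), which took its negative controls from the detection p-values and used an offset of 16. Values were then put on the log2 scale and quantile normalized, each set by itself. The offset makes differences of dim probes smaller than those of their transcripts. Probes with a detection p under 0.05 on at least 4 arrays of 8 without mimic, or 3 of 6 with mimic, were tested. A gene stood by the brightest of its probes detected on all 14 arrays, or else by its brightest passing probe, and probes without a symbol of their own were kept as features. Of the 25697 probes 23978 had 1 symbol in the platform annotation, and all 108 genes matched the RefSeq gene table.

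Cre-positive and Cre-negative samples, grouped by their labels, were compared with lmFit and eBayes, two-sided, with Benjamini-Hochberg adjustment over all features at 0.05. Mimic was not tested against no mimic, because it coincides with the table. Replicate numbers were not treated as pairs in the main fits. Correlations of same-numbered deviations were -0.0662 to 0.0100 without and 0.0364 to 0.211 with mimic. So few samples per group cannot settle whether the samples were paired. The procedure was tested on simulated data. That test required recovery only of added changes larger than any difference seen among the solute carriers. Named genes were the 5 with the smallest p in each direction and comparison, the 2 brightest of each class, a list of carriers with textbook roles, and the 3 on each side of the detection threshold. The genes and lists were chosen with earlier results of these data known. The settings varied were the background step (none at all, or other offsets), a replicate block, median scaling, the deposited values, no filter, other eBayes settings, array weights, a shared spread and leaving out each array. Figures were drawn with matplotlib 3.10.9 in Python 3.11.15.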

Additional observations from a re-analysis of the deposited data

Results flagged for a closer look

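In 98 groups of 4 samples, made of the 49 named genes and the groups without mimic, 7 had 1 sample far from the other 3 by Dixon's criterion. Chance gives about 1 in 20 groups, and the share here was 1.43 in 20. For Slc25a13, Cre-positive replicate 4 was at a log2 signal of 4.84, against 4.54 to 4.55 in the other 3 Cre-positive samples. For Slc26a10 the same replicate was at 4.94, against 4.56 to 4.60 in the others. Both genes are among the 3 nearest to the detection threshold, and this replicate also stood apart on the first principal component. For Slc31a2, Cre-positive replicate 1, which detected the fewest probes, was at 5.61, against 5.33 to 5.38.

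In the Cre-negative samples, replicate 3 was at 6.81 for Slc18a2, against 6.48 to 6.53 in the others, and at 5.20 for Slc36a1, against 4.90 to 4.93. Replicate 2 was at 7.19 for Slc7a6os, against 6.91 to 6.93, and at 8.57 for Slc9a3r1, against 8.82 to 8.85. None of these 7 genes passed the adjusted threshold in any comparison. The cause of these values was not tested.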

How the results depend on the processing

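In limma no detected solute carrier passed an adjusted p of 0.05 in any of the 3 comparisons, under 14 other settings and with each array left out. The smallest limma adjusted p was 0.465 without mimic, 0.369 with mimic and 0.691 for the difference. Of these settings, the deposited normalized values, the series values and no background correction hold the same values and count as the same analysis. Median scaling moved the median difference without mimic to -0.12 and the median difference of the Cre effects to 0.092, and left 20 of the 108 genes above 0 without mimic (35 as reported), while the median of all features without mimic moved to -0.07. Leaving out each array gave 38 to 45 genes above 0 without and 52 to 58 with mimic, and medians of -0.05 to -0.01, -0.00 to 0.01 and 0.02 to 0.05 without mimic, with mimic and for the difference. Over all features, the 14 calls with mimic became 23 with the deposited normalized or series values or no background correction, 27 with trend and robust eBayes, 22 with median scaling, 25 with an offset of 50 and 2 to 14 with an array left out. The replicate block, which treats samples with the same number as pairs, gave 3 calls with mimic. The 4 calls without mimic became 2 with no filter or an offset of 1, and 3 to 5 with an array left out. The 0 calls for the difference (414 features at an unadjusted p under 0.05) became 3 with array weights, deposited values or no background correction, 2 with median scaling, 1 with no filter, 6 with an offset of 50 and 0 to 4 with an array left out. The causes were not tested. The rule found 98 genes at a detection p under 0.01, 114 on 13 of 14 arrays, 110 in the set without mimic alone and 128 in the set with mimic alone; 2 settings chosen after seeing the data gave 113 without Cre-positive replicate 1 and 108 without Cre-positive replicate 4. Signal over background limits what can be said of dim probes, whose differences shrink with the offset.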

Other observations

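Transport genes outside the solute carrier rule were measured in the same fits, and none of their 8 lists held a gene past the adjusted threshold in limma. The genes given with differences here were picked for having the smallest or next smallest unadjusted p of their list in some comparison. They are therefore not typical of their lists. Of the ABC transporters, pumps that use ATP to export substrates, 15 of 46 were detected on all 14 arrays and 21 were tested without mimic. Abcb1b, a multidrug exporter, was at -0.22 without mimic (adjusted p = 0.949) and -0.18 with mimic (adjusted p = 0.739). Abcc6 was at -0.31 and -0.49 (adjusted p = 0.949 and 0.417). Of the zinc carriers, 8 of 21 were detected on all arrays. Slc39a10, a zinc importer, was at -0.33 without mimic (adjusted p = 0.948) and 0.15 with mimic.

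Of the organic anion carriers, 4 of 11 were detected on all arrays, and Slco3a1 was at 0.24 without and 0.07 with mimic. Of 11 aquaporins, the water and glycerol channels, 2 were detected on all arrays. Aqp1 was at -0.23 without and 0.09 with mimic, and Aqp9 at -0.04 and -0.07. Among 10 sodium and calcium pump genes, 7 were detected on all arrays, and the calcium pump Atp2a3 was at -0.16 without and -0.26 with mimic. Of 10 mitochondrial transport genes without an Slc symbol, 6 were detected on all arrays. Their import chaperone Timm9 was at 0.40 without and 0.29 with mimic (limma adjusted p = 0.949 and 0.785). Of 4 partners of carriers 3 were detected on all arrays, and Bsg, which escorts monocarboxylate carriers, was detected on none. Of 15 carriers of the superfamily without an Slc symbol, 8 were detected on all arrays. Mfsd2a, a lysophospholipid carrier, was at 0.14 without and 0.17 with mimic. The smallest p of this list belonged to Spns1 without mimic, at 0.22 without and -0.14 with mimic. With mimic it belonged to Mfsd11, detected on 6 arrays and not tested without mimic, at -0.53 (limma adjusted p = 0.520).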
